A study of Mus musculus with 12 samples.

Results

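Sox17, S100g, Spink1, Cyp26a1, Tinagl1, St3gal6 and Vldlr are 7 mouse genes that stood above embryonic stem (ES) cells by day 8 of undirected differentiation, out of 9212 genes on the array. They were picked by symbol, each symbol matched exactly 1 probe, and all 7 were found and tested, since no filter on low values was used. They were chosen as genes rising by day 8, with log ratios over the 4 days, the peak day and the spread of the day 8 arrays in view. Day 8 values are therefore described here without a test, and tests are given for days 4, 15 and 21. Values of those days were in view too, and earlier results of these data were known when the genes were chosen. The tests of those days are thus not free of selection either. One channel of each array held RNA from embryoid bodies (EB), clumps of differentiating cells grown out of an ES culture, that had been taken apart and plated in DMEM with fetal bovine serum for 4, 8, 15 or 21 days. The other held RNA of undifferentiated ES cells of the R1 mouse line, kept on gelatin with leukemia inhibitory factor, a cytokine that holds them undifferentiated, in medium with 15% serum. No genotype other than the line and no drug is named in the labels.

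There were 12 arrays, 3 for each day. Values are log2 ratios of EB over ES, so 0 is the level of ES cells and 1 is a doubling. Base 2 is the usual convention and is not stated in the sources. The sign is a likely reading: the label protocols give Cy5 to EB RNA and Cy3 to ES RNA, while the sample titles and dye fields point the other way. A list of 14 genes of the undifferentiated state, none of them among the 7, had medians of -0.09, -0.58, -0.73 and -1.21 at days 4, 8, 15 and 21 under this reading. It had 0, 5, 10 and 11 members called lower and 0 called higher on these days. The reading was chosen with the values of these and of endoderm markers known, so neither is separate support for it. If the sign is the other way round, higher and lower change places throughout. Called lower were 0% of all features at day 4, 1.06% at day 8, 4.9% at day 15 and 9.93% at day 21. Calls come from limma, a linear model that shares information on spread between features, with Benjamini-Hochberg adjusted p under 0.05 over all 10689 features. No source ties the arrays to separate cultures, so p-values measure the spread between arrays, which may be technical.

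Of these arrays, 5 stood apart from the other 7 in 96 unnamed features that recur at fixed places in the feature list. The mean of those features was between -1.46 and -0.79 in the second set (array 3 of every day and array 2 of day 8) and between -0.31 and 0.07 in the first set. Arrays of a day correlated across features by 0.00518 to 0.206 at day 4, 0.349 to 0.614 at day 8, 0.392 to 0.818 at day 15 and 0.560 to 0.770 at day 21. The day 8 mean of a gene therefore joins 1 array of the first set with 2 of the second, and the other days join 2 with 1.

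In the mouse embryo a first endoderm, the primitive endoderm, lines the inner cell mass and gives rise to parietal endoderm, which lays down basement membrane, and to visceral endoderm, which absorbs, stores and secretes proteins and lipids for the embryo. Definitive endoderm, the source of gut, liver and pancreas, forms later at the primitive streak. Embryoid bodies are known to form an outer layer of primitive and visceral endoderm early on. Sox17 is a transcription factor of all these endoderm types and also of endothelium. In the RNA of a whole culture, a larger share of cells of a type and more RNA per cell cannot be told apart.

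At day 8 all 7 genes were above 0 on all 3 arrays. Ranked by mean among 10689 features, S100g was at position 1, Spink1 at 2, St3gal6 at 6, Tinagl1 at 7, Cyp26a1 at 8 and Vldlr at 9, while Sox17 was at 58. Their courses then parted. The mean was highest at day 8 for 4 genes (Sox17, Cyp26a1, St3gal6 and Vldlr), at day 15 for S100g and at day 21 for Spink1 and Tinagl1. Only Cyp26a1 had day 8 arrays that were all above its arrays of days 15 and 21, and in the other 6 the arrays of the highest day overlapped those of the next.

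**Figure D1:**
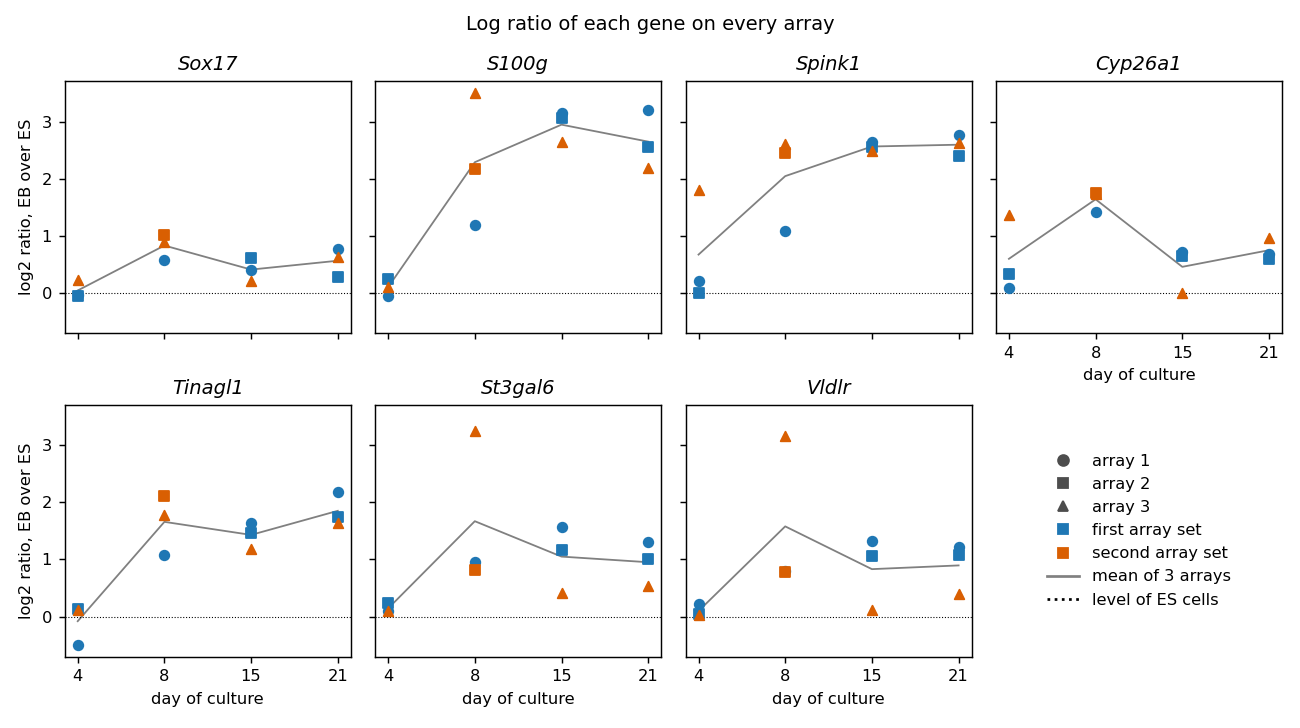
Log2 ratio of EB over ES (vertical axis) on every array of days 4, 8, 15 and 21 (horizontal axis, evenly spaced), one panel a gene. Symbols mark the array number, colours the 2 array sets, the grey line the mean of 3 arrays and the dotted line the ES level; S100g, Spink1 and Tinagl1 stay high after day 8, Cyp26a1 has its highest arrays at day 8, and array 3 of day 8 stands far above arrays 1 and 2 for St3gal6 and Vldlr.

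Sox17, the one transcription factor of the group, read -0.04, -0.05 and 0.22 on arrays 1 to 3 of day 4, and 0.58, 1.02 and 0.90 at day 8. It read 0.40, 0.62 and 0.22 at day 15 and 0.78, 0.29 and 0.63 at day 21. The arrays of days 8, 15 and 21 overlapped, and those of day 21 lay above all of day 4. Sox17 was higher than ES at day 15 (0.41 ± 0.20, SD, n = 3, limma adjusted p = 0.0398) and at day 21 (0.57 ± 0.25, adjusted p = 0.00534). At day 4 it was 0.05 ± 0.15 (adjusted p = 0.938). Its day 15 call was lost without day 15 array 1 (adjusted p = 0.161), day 15 array 2 (0.305) or day 4 array 1 (0.0534), and its day 21 call without day 21 array 1 (0.067). The day 15 call was also lost after quantile normalization (adjusted p = 0.112), after scaling of the arrays (0.14) and in a fit of day 15 alone (0.0959), and the day 21 call after scaling (0.0693). Among the 15 other measured Sox genes 0 were called higher at day 8. That is near the share of 1.23% over all features and says little about the family. Sox2, a factor of the undifferentiated state, stood at -0.58 at day 8 (adjusted p = 0.0319) and at -1.01 at day 21 (adjusted p = 0.000197), each against ES. Sox18, a factor of endothelium, was called only later, at 0.51 (adjusted p = 0.0492) at day 15 and 0.61 (adjusted p = 0.0145) at day 21. Its day 15 arrays read 0.75, 0.77 and 0.0043.

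S100g, calbindin-D9k, is a small intracellular calcium-binding protein of intestine, placenta and yolk sac, and had the largest mean of all features at day 8. Day 4 arrays read -0.05, 0.26 and 0.11, and day 8 arrays 1.20, 2.17 and 3.51. Those of day 15 read 3.15, 3.06 and 2.64 and those of day 21 read 3.21, 2.55 and 2.19. No array of days 8, 15 or 21 overlapped day 4, and day 8 spanned the widest range, 2.32. S100g was higher than ES by 2.95 ± 0.27 at day 15 (n = 3, limma adjusted p = 0.000252), which is 7.73-fold if the base is 2. It was higher by 2.65 ± 0.52 at day 21 (adjusted p = 0.000171). It also differed between days: day 15 was above day 4 by 2.85 (95% interval 1.89 to 3.80, adjusted p = 0.0116), and day 21 above day 4 by 2.55 (1.60 to 3.50, adjusted p = 0.00644). The first of these was lost without day 4 array 1 (adjusted p = 0.0559), day 15 array 1 (0.0728) or day 15 array 2 (0.0762). Of 11 other measured S100 genes, 0 were called at day 8, near the shares of all features (1.23% higher and 1.06% lower). S100a4, a calcium-binding protein of motile cells, fell by 1.98 at day 15 (adjusted p = 0.00486), so this family did not move as one. Calb1, the larger calbindin, was the one gene called among 11 of vitamin D and calcium handling, at 0.80 (adjusted p = 0.0284) at day 15 and 0.90 (adjusted p = 0.0101) at day 21. Vdr, the vitamin D receptor, looked up after its values were seen, read 0.01 at day 8 (adjusted p = 0.974).

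The 250 bases before the start of S100g are shown because this gene had the largest ratio; they lie at chrX:162964600-162964849 on the minus strand (GRCm38.p6, from RefSeq). Capitals mark GTAAACA, a core motif of FOX factors.
S100g: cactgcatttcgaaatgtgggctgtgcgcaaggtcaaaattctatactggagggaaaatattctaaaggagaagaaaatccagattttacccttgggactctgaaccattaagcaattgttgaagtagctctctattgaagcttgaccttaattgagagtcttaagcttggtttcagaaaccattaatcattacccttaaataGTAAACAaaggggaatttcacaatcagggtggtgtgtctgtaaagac
The motif begins 47 bases before the start, and 3.17% of 32851 promoter windows of this length hold it on either strand. AACAAT, a core of SOX factors, was found on the opposite strand, as in 9.42% of windows.

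Spink1, a secreted inhibitor of trypsin made by pancreas and gut, read 0.21, 0.0042 and 1.81 at day 4 and 1.09, 2.45 and 2.61 at day 8. It read 2.64, 2.57 and 2.49 at day 15 and 2.77, 2.40 and 2.63 at day 21. Array 3 of day 4 was already above array 1 of day 8, and from day 15 on the arrays lay within 0.36 of one another. Spink1 was higher than ES by 2.57 ± 0.08 at day 15 (n = 3, limma adjusted p = 0.000464) and by 2.60 ± 0.18 at day 21 (adjusted p = 0.000188). Its day 15 spread was smaller than that of 80.6% of features. Day 21 was above day 4 by 1.92 (95% interval 0.98 to 2.87, adjusted p = 0.0234). That call was lost without day 4 array 1 (adjusted p = 0.0972), day 4 array 2 (0.0788), day 21 array 1 (0.099) or day 21 array 2 (0.0641). It was also lost after quantile normalization, which gave 0.98 (adjusted p = 0.443), and after scaling, which gave 1.20 (adjusted p = 0.389). Day 15 exceeded day 4 by 1.89 without a call (adjusted p = 0.059), and without day 4 array 3 this was 2.46 (adjusted p = 0.0267). Of 13 other measured trypsins and serine protease inhibitors 0 were called at day 8, near the shares of all features (1.23% higher and 1.06% lower). At day 21, 4 of the 13 were higher and 1 lower, against 8.78% and 9.93% of all features. Among them were Serpinh1, the collagen chaperone, at 1.13 (adjusted p = 0.00248), and the elastase Cela2a, which fell by 0.79 (adjusted p = 0.0162).

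Tinagl1, a matrix protein of basement membranes related to tubulointerstitial nephritis antigen, read -0.50, 0.14 and 0.12 at day 4 and 1.08, 2.12 and 1.78 at day 8. It read 1.64, 1.46 and 1.19 at day 15 and 2.18, 1.74 and 1.64 at day 21. Days 8, 15 and 21 overlapped, and all 9 of their arrays lay above day 4. Tinagl1 was higher than ES by 1.43 ± 0.23 at day 15 (n = 3, limma adjusted p = 0.00065) and by 1.85 ± 0.29 at day 21 (adjusted p = 5.22e-05). Day 15 exceeded day 4 by 1.51 (95% interval 0.95 to 2.07, adjusted p = 0.0187) and day 21 exceeded day 4 by 1.93 (1.37 to 2.49, adjusted p = 0.00164). The call of day 15 over day 4 was lost without day 4 array 1 (adjusted p = 0.0766), day 15 array 1 (0.104) or day 15 array 2 (0.11). After scaling neither difference was called (adjusted p = 0.112 for day 15 and 0.0507 for day 21). Of 11 related genes and cathepsins, lysosomal proteases, 2 were called higher at day 8, 3 at day 15 and 7 at day 21. Over all features 1.23%, 5.66% and 8.78% were called higher on these days. Ctsh, a cathepsin, stood at 1.54 at day 8 (adjusted p = 0.0235) and Cst3, a secreted cathepsin inhibitor, at 0.54 (adjusted p = 0.0239). Tinag itself was -0.04 at day 8 (adjusted p = 0.854) and 0.29 at day 21 (adjusted p = 0.023), and was looked up after its values were seen.

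Cyp26a1, the cytochrome P450 that breaks down retinoic acid and is induced by it, read 0.09, 0.34 and 1.37 at day 4 and 1.42, 1.76 and 1.74 at day 8. At day 15 it read 0.72, 0.66 and 0.0008 and at day 21 it read 0.69, 0.60 and 0.97. Every day 8 array was above every array of the other 3 days, although array 3 of day 4, at 1.37, lay close to the lowest. Its day 8 spread, an SD of 0.19, was the smallest of the 7 genes and was exceeded by 32.5% of features. Cyp26a1 was higher than ES at day 21 (0.75 ± 0.19, n = 3, limma adjusted p = 0.0222), but not at day 15 (0.46 ± 0.40, adjusted p = 0.168) or day 4 (0.60 ± 0.68, adjusted p = 0.339). The day 21 call was lost without any 1 of its 3 arrays (adjusted p = 0.0936, 0.0735 and 0.108 without arrays 1, 2 and 3). It was also lost after quantile normalization (0.63, adjusted p = 0.349) and after scaling (0.62, adjusted p = 0.216).

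The promoter of Cyp26a1 is shown because a retinoic acid response element there is known from earlier work on this gene; the window is chr19:37697558-37697807 on the plus strand (GRCm38.p6, from RefSeq). It precedes one of the gene's transcription starts, so its end overlaps the annotated gene. Capitals mark the direct repeat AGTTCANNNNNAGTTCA of retinoic acid receptor half-sites, read on the minus strand.
Cyp26a1: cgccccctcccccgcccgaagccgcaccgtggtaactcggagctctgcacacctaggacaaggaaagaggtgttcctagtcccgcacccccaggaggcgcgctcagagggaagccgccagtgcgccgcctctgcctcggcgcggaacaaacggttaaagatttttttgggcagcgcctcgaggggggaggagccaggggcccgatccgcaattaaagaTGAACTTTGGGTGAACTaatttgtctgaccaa
The repeat begins 32 bases before that start, and 7 of 32851 promoter windows hold it (0.0213%). Only these exact letters were searched, so the share is that of this string and leaves out other spellings of the half-site. Since an element was already known here, the match in Cyp26a1 is no finding of the search. Tinagl1 and Vldlr, with 2 windows each, held none of the strings searched. These were this exact repeat, the FOX and SOX cores given with S100g, and AGATAA, a core of GATA factors. Of the 2 windows of St3gal6, 1 held AGATAA, which is in 9.99% of windows. These matches are letters in a window and no measure of binding.

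Other genes of the retinoic acid pathway were set beside Cyp26a1, which was itself chosen for its day 8 level. Of 27 listed 18 were measured, and at day 8 their means ran from -0.47 to 0.27 with a median of -0.02. At that day 0 were called, near the shares of all features (1.23% higher and 1.06% lower), which says little about the pathway. At day 21, 5 were called higher and 2 lower, against 8.78% and 9.93% of all features. Rbp2, an intracellular retinol carrier, was at 0.74 (adjusted p = 0.00167) and Crabp2, a retinoic acid carrier, at 0.53 (adjusted p = 0.0105). Stra8, a retinoic acid target of germ cells, fell by 0.47 (adjusted p = 0.0308), and Rdh5, a retinol dehydrogenase, by 0.48 (adjusted p = 0.025). Of the genes of synthesis and reception that were looked up after their values were seen, Aldh1a2, which makes retinoic acid in the embryo, was -0.11 at day 8 (adjusted p = 0.505). Rara, a retinoic acid receptor, was 0.0013 at day 8 (adjusted p = 0.996).

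St3gal6, an enzyme that adds sialic acid to sugar chains of glycoproteins and glycolipids, read 0.09, 0.23 and 0.11 at day 4 and 0.96, 0.81 and 3.24 at day 8. It read 1.57, 1.17 and 0.41 at day 15 and 1.31, 1.02 and 0.53 at day 21. Vldlr, a receptor that takes up lipoproteins and carries the reelin signal, read 0.22, 0.05 and 0.02 at day 4 and 0.80, 0.78 and 3.16 at day 8. Vldlr then read 1.32, 1.05 and 0.12 at day 15 and 1.21, 1.08 and 0.40 at day 21. In both genes array 3 was the highest of day 8 and the lowest of days 15 and 21. S100g had the same order, and array 3 was the lowest of day 15 in all 7 genes. The day 8 means of St3gal6 and Vldlr, 1.67 ± 1.36 and 1.58 ± 1.37, rested on array 3: without it they were 0.88 and 0.79. Among all features the spread of Vldlr at day 8 ranked 14 and that of St3gal6 ranked 16.

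Neither gene passed the test at days 15 or 21. St3gal6 was at 1.05 ± 0.59 (n = 3, limma adjusted p = 0.084) at day 15 and 0.95 ± 0.39 (adjusted p = 0.0876) at day 21. Vldlr was at 0.83 ± 0.63 (adjusted p = 0.174) and 0.90 ± 0.44 (adjusted p = 0.113). The fit shares one spread over all days, and day 8 array 3 entered it. Without that array St3gal6 was called at day 15 (adjusted p = 0.00499) and day 21 (0.00488), and so was Vldlr (0.0219 and 0.00951), with the same means. St3gal6 was also called after quantile normalization (adjusted p = 0.019 at day 15 and 0.0272 at day 21). Their values also went with the array sets: at day 15 the first set gave 1.37 for St3gal6 and 1.19 for Vldlr (2 arrays), and the second 0.41 and 0.12 (1 array). The part of the array set in these values was not tested.

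The pair moved almost as one. Over the 12 arrays Pearson's r between St3gal6 and Vldlr was 0.99 and Spearman's rho 0.95. It was 0.98 without the 2 arrays farthest from the St3gal6 median and 0.99 after the mean of each day was removed. The values differed by 0.29 at most on any array. The arrays share ES RNA and fall in 4 days, so this is a description of these arrays. Each gene had 1 probe, and the annotated genes lie on chromosomes 16 and 19. Probe sequences were not used here, so whether both probes measure the genes they are annotated to was not tested, and the values of St3gal6 and Vldlr are those of probes annotated as such. The other 20 pairs among the 7 genes had r between 0.15 and 0.89. S100g with Tinagl1 (0.89) and S100g with Spink1 (0.86) were the highest of those, and Cyp26a1 with S100g (0.15) the lowest. After the mean of each day was removed, S100g with St3gal6 (0.88) and S100g with Vldlr (0.87) were the highest of those.

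**Figure D2:**
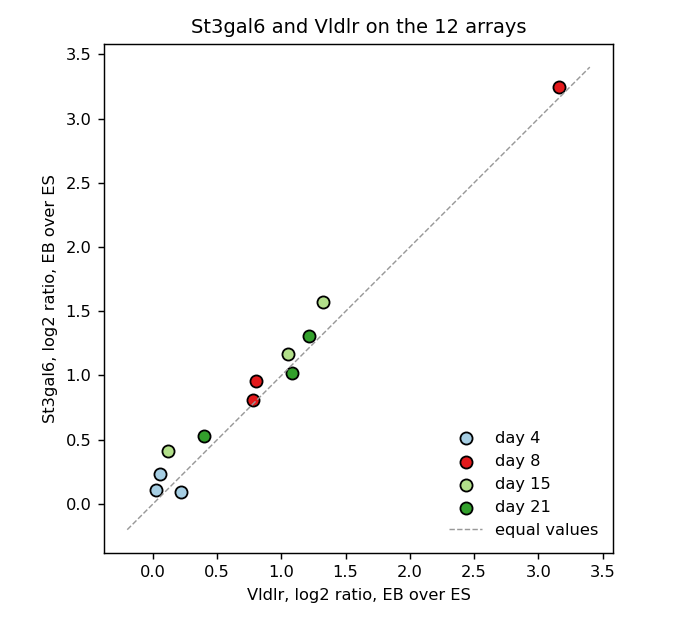
Log2 ratio of EB over ES of St3gal6 (vertical axis) against that of Vldlr (horizontal axis), 1 point an array, coloured by day, with the dashed line of equal values. The points follow the line on all 12 arrays, and the day 8 point near 3.2 is array 3.

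Relatives of both genes were mostly not called, and the same held for all features. Of all features 1.23%, 5.66% and 8.78% were called higher at days 8, 15 and 21, and 1.06%, 4.9% and 9.93% lower. Of 17 other sialyltransferases measured, St3gal1, which acts on O-linked sugar chains, was called higher at day 21 (0.95, adjusted p = 0.0297). It stood at 1.10 at day 8 without a call (adjusted p = 0.0577). St8sia4, a polysialic acid synthase, was lower than ES at days 8, 15 and 21, at -0.84, -0.75 and -0.94 (adjusted p = 0.0167, 0.00627 and 0.000964). Of 16 genes of lipoprotein receptors and reelin signalling, 1 was called higher at day 8, 5 at day 15 and 6 at day 21, and 0 lower. The day 8 gene was Lrp2, megalin, the endocytic receptor of visceral endoderm (0.98, adjusted p = 0.0493). At day 21 Stab1, a scavenger receptor, stood at 0.97 (adjusted p = 0.0154), the lipoprotein Apoe at 0.84 (adjusted p = 0.0109) and the lipase Lpl at 0.64 (adjusted p = 0.0103). On arrays 1 to 3 of that day Stab1 read 1.49, 1.21 and 0.21 and Lpl 0.90, 0.87 and 0.14, while Apoe read 0.80, 0.90 and 0.81. Reln, the ligand reelin, looked up after its values were seen, was -0.01 at day 8 (adjusted p = 0.964).

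Counted together, 0 of the 7 genes were called at day 4, when 0% of all features were called higher. Unadjusted p was under 0.05 for 2 of them, Spink1 and Cyp26a1, and for 1081 features in all, and both means were carried by array 3 of that day. At day 15, 4 of 7 were called higher, against 5.66% of all features. At day 21, 5 of 7 were called higher, against 8.78% of all features. Medians over the 7 were 0.10, 1.05 and 0.95 at days 4, 15 and 21, and over all features 0.01 or less in size. Since the 7 were chosen for day 8 and the same ES RNA is in every ratio, these counts describe how many stayed high and are no separate evidence. In a fit without the day 8 arrays 6 of 7 were called at day 15 and 7 of 7 at day 21. Without day 21 array 1, 3 of 7 were called at day 21.

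**Figure D3:**
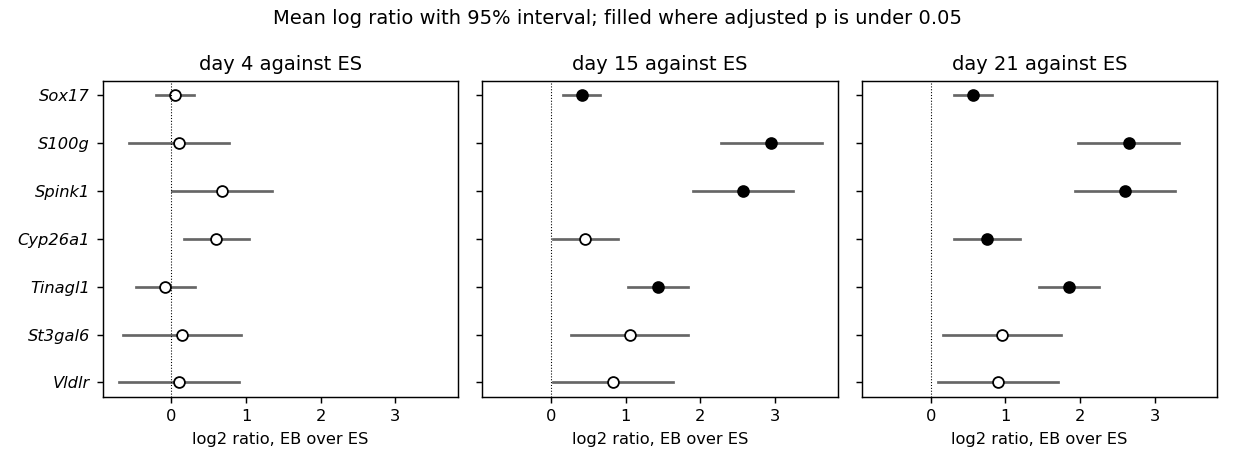
Mean log2 ratio of EB over ES (horizontal axis) with its 95% interval from the fit, for the 7 genes (rows) at days 4, 15 and 21; filled points passed an adjusted p of 0.05. No gene passed at day 4, and S100g, Spink1 and Tinagl1 lie farthest from 0 at days 15 and 21.

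Between days 21 and 15, 0 of 7 genes were called, against 0.00936% of features called higher and 0% lower (1 feature, with 674 at an unadjusted p under 0.05). Differences ran from -0.30 for S100g (95% interval -1.25 to 0.66) to 0.42 for Tinagl1 (-0.14 to 0.98), so shifts of that size in either direction were not resolved. Day 15 over day 4 was called for 2 of 7 genes, against 0.805% of features called higher and 0.533% lower. Day 21 over day 4 was called for 3 of 7, against 2.62% of features called higher and 3.22% lower. Since the 7 were chosen as rising by day 8, these counts over day 4 are no separate evidence of a rise. Cyp26a1 gave -0.14 for day 15 over day 4 (adjusted p = 0.891) and 0.15 for day 21 over day 4 (adjusted p = 0.832), the smallest sizes among the 7 in both.

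The label of endoderm was set against 3 marker lists that hold none of the 7 genes. Those lists were written with earlier results of these data known, so their counts are no separate support for the label. Lists also share genes, so counts of different lists are not separate observations. Ctsh, Lrp2, Apoe, Dab2, Tmprss2 and Sox7 are each in an endoderm list and in a list of relatives given above. Sox18 is in the Sox list and the endothelial list. Of 24 genes of primitive and parietal endoderm, 11 were called higher at day 8, against 1.23% of all features, and their median was 0.46. They were Gata4, Gata6, Pdgfra, Lamb1, Col4a1, Sparc, Plat, Fst, Pth1r, Krt8 and Krt18, named here in full after their values were seen. The 13 not called were Sox7, Dab2, Foxa1, Foxa2, Lama1, Lamc1, Col4a2, Thbd, Nid1, Srgn, Snai1, Rhox5 and Krt19, likewise named after their values were seen. Their means ran from -0.06 (Foxa1) to 0.56 (Lamc1). Krt18, a keratin of simple epithelia, stood at 1.27 (adjusted p = 0.0191) and Sparc, a collagen-binding matrix protein, at 0.93 (adjusted p = 0.0379). Pth1r, a receptor of parietal endoderm, stood at 0.96 (adjusted p = 0.00738). The endoderm factors Gata4 (0.36, adjusted p = 0.0411) and Gata6 (0.46, adjusted p = 0.0368) were smaller. At days 15 and 21 Gata4 averaged 0.12 and 0.245 and Gata6 0.31 and 0.31, all without a call. Leaving out day 8 array 1 gave 6 genes, and leaving out array 2 or array 3 of that day gave 0. Leaving out day 15 array 2 or day 21 array 2 gave 6. The list had 10 called higher at day 15 (3 without array 1 or array 2 of that day, and 5 after quantile normalization or in a fit of day 15 alone). It had 12 at day 21 (6 without array 1 and 7 without array 2 of that day, and 6 after scaling). Thbd was the 1 gene called lower at day 21 (-0.48, adjusted p = 0.0313). Over all features 5.66% were called higher at day 15 and 8.78% at day 21.

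Of 25 measured genes of visceral endoderm, 6 were called higher at day 8, 15 at day 15 and 16 at day 21. Over all features 1.23%, 5.66% and 8.78% were called higher on these days, and 1.06%, 4.9% and 9.93% lower. Tfrc, looked up after its values were seen, was the 1 gene called lower, at day 15 (-0.51, adjusted p = 0.00881) and day 21 (-0.39, adjusted p = 0.0216). The median of the 25 genes was 0.68, 1.19 and 1.10 at days 8, 15 and 21. By array the day 8 median was 0.10, 0.59 and 1.04, in the same order as the mean of the 7 genes (1.02, 1.59 and 2.42). The count at day 8 was 0 without array 2 or array 3 of that day and 3 without day 21 array 2, and the count at day 21 was 10 without array 1 of that day. Apoa1, the apolipoprotein of high-density lipoprotein, read 0.40, 2.03 and 3.11 at day 8. Trf, the serum iron carrier, was called at day 15 (3.01, adjusted p = 0.000801) and not at day 8 (0.91, adjusted p = 0.234). Afp and Ttr were likewise not called at day 8 (adjusted p = 0.0519 and 0.236), where array 1 read 0.01 and -1.33. Hnf4a averaged 0.05, -0.02 and -0.04 at days 8, 15 and 21, and Ihh 0.23, -0.63 and -0.12, without a call. Cdh1 and Amot were also not called on these days. Hnf4a, Ihh, Cdh1 and Amot were looked up after their values were seen. Of 21 genes of definitive and anterior endoderm, 0 were called at day 8, where the median was 0.11; with array weights 4 were. At day 21, 3 were higher and 3 lower, and those higher were 1 without array 1 or array 2 of that day and 5 without day 15 array 3. Tmprss2, a membrane protease of gut, was at 1.42 (adjusted p = 0.0027), whereas Nodal, the signal that induces definitive endoderm, fell by 0.61 (adjusted p = 0.00162).

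Markers of other cell types that express some of the 7 genes were measured as well, and their part in the values was not tested. Over all features 1.23% were called higher at day 8, 5.66% at day 15 and 8.78% at day 21. Of 12 endothelial genes 0 were called at day 8, with means from -0.24 to 0.27. At day 21, 4 were called higher: Sox18 (0.61, adjusted p = 0.0145), Emcn (0.47, 0.0141), Kdr (0.41, 0.00488) and Tie1 (0.37, 0.00843). Array 3 of that day read 0.22, 0.08, 0.26 and 0.29 for them, in the same order. The endothelial markers Pecam1 and Cdh5 stood at -0.03 and -0.22 at day 8 and at 0.08 and 0.01 at day 21, without a call. Of 12 trophoblast genes 0 were called at day 8, 1 at day 15 and 0 at day 21, and Cdx2 was 0.01 at day 8. Of 15 heart and smooth muscle genes, 1 was higher and 1 lower at day 8, and 10 were higher at day 21. Among the latter was the myosin light chain Myl4 (1.29, adjusted p = 0.00884), whose day 21 arrays read 2.28, 1.25 and 0.34. Pecam1, Cdh5 and Cdx2 were looked up after their values were seen.

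**Figure D4:**
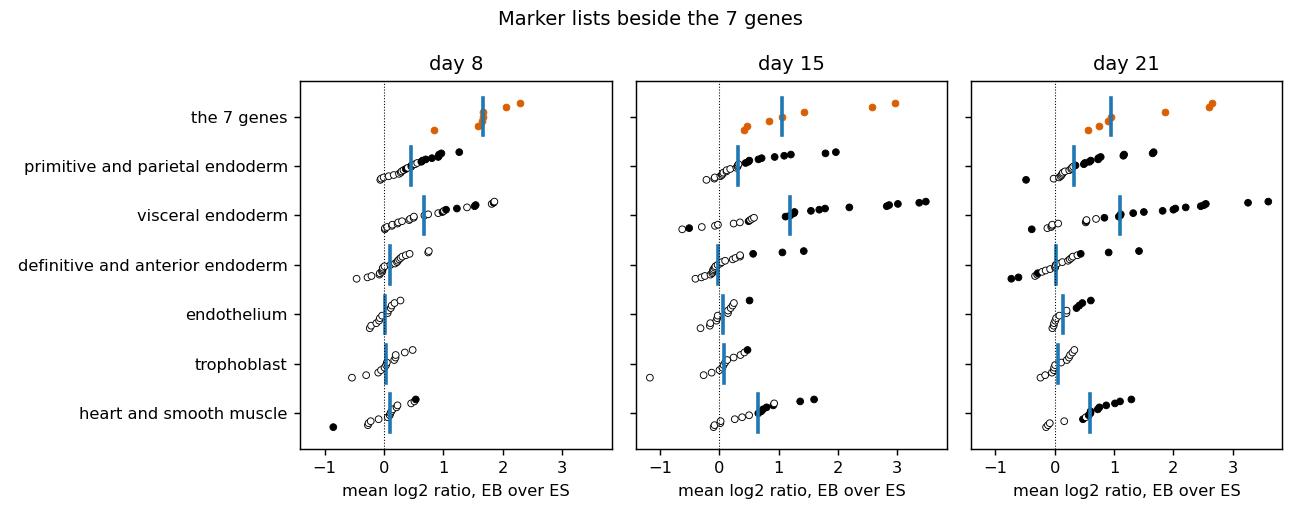
Mean log2 ratio of EB over ES at days 8, 15 and 21 (horizontal axis), 1 point a gene, with the 7 genes in orange above 6 marker lists; filled points passed an adjusted p of 0.05 and blue bars are medians. At day 8 the medians of the 2 extraembryonic endoderm lists are 0.46 and 0.68 and those of the other 4 lists lie between 0.01 and 0.11.

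The genes most like the mean of the 7 over the 12 arrays were Klc4 (r = 0.98), Npc1 (0.96), Rnf128 (0.96), Plac8 (0.93), Hkdc1 (0.93) and Jak2 (0.91). Klc4, a light chain of the kinesin motor, averaged 0.08, 0.46, 0.39 and 0.35 at days 4, 8, 15 and 21. Rnf128, a ubiquitin ligase, averaged 0.00, 1.11, 0.68 and 0.95. Single genes had neighbours of their own. Nearest to Tinagl1 was Col4a1 (r = 0.99), a collagen chain of basement membrane, and nearest to S100g were Gpx3 (0.96), a secreted glutathione peroxidase, and Krt19 (0.96), a keratin. Spink1 was most like Cited1 (0.95), a transcriptional coregulator, and Sox17 most like Hkdc1 (0.91), a hexokinase. St3gal6 and Vldlr had the same nearest genes, Bace2, an aspartic protease (0.97 and 0.96), and Foxa2, an endoderm factor (0.93 and 0.92). Foxa2 itself averaged 0.16 at day 8 (adjusted p = 0.454). Cyp26a1 was most like Cul4b (0.95), a ubiquitin ligase scaffold that was below 0 on the mean of every day, so a like course did not mean a like level. These correlations are over 12 arrays that share ES RNA and carry no test.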

How the data were processed

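The authors deposited normalized log ratios, read here as log2, for 11520 features on 12 arrays of 2 channels; 0 values were missing. Dye-labelled RNA was transcribed from cDNA of total RNA, per the labels' protocols. The normalization, scanner and background treatment were not given in the sources used here, no intensities were used, and the number of arrays limits the precision. Gene symbols come from the platform annotation held by GEO, some of it possibly out of date (10043 features with 1 symbol, 29 with several, 1448 with none), and probes of a gene were averaged, giving 9212 genes and 10689 tested features. Entrez IDs of 10025 features matched RefSeq, with 0 symbols changed.

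Features were tested with limma 3.58.1 in R 4.3.3 (lmFit, eBayes), with 1 mean a day over all 12 arrays, 8 residual degrees of freedom, and two-sided p-values adjusted within each comparison. Each day was tested against 0, so ES RNA counts as 1 control and its spread is left out. No dye swap was made, so a gene's dye effect stays in its ratio. The fits were tested on simulated data. Errors after ± are SDs over 3 arrays. The 7 genes and the gene lists were chosen with earlier results of these data known. Named genes are the 7, those most correlated with them, and up to 4 called genes a list with the largest day 21 means; exceptions are stated. Alternatives were quantile normalization, scaling, array weights, other samples in the fit, a replicate block, leaving out each array, and, chosen after seeing the data, the array sets. Plots were drawn with matplotlib 3.10.9.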

Additional observations from a re-analysis of the deposited data

Results flagged for a closer look

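For 3 of the 7 genes the ratio to ES cells differed between days by a test of the difference itself. S100g was higher at day 15 than at day 4 by 2.85 and at day 21 than at day 4 by 2.55. Tinagl1 was higher at day 15 than at day 4 by 1.51 and at day 21 than at day 4 by 1.93. Spink1 was higher at day 21 than at day 4 by 1.92. In each case the arrays of the later day lay above all 3 arrays of day 4. All 5 differences use the same 3 day 4 arrays, so they are not independent of one another. The genes were chosen as rising by day 8, so these tests are not free of that choice. The Spink1 call was lost after quantile normalization (limma adjusted p = 0.443) and after scaling (0.389). After scaling the Tinagl1 calls were lost as well (0.112 at day 15 and 0.0507 at day 21). The calls of day 15 over day 4, and that of Spink1, were also lost without some single arrays. Groups of 3 arrays are too small for a test of single outlying arrays, and the high value of St3gal6 and Vldlr on day 8 array 3 is therefore described without one.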

How the results depend on the processing

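At day 4 the count of the 7 genes called was 2 in the second array set alone, against 0. At day 15 it was 7 with array weights, 7 in the first array set alone and 1 in the second, against 4; leaving out single arrays gave 3 to 6. At day 21 it was 3 after scaling to one median absolute deviation and 3 in the second array set, against 5; leaving out single arrays gave 3 to 7. For day 15 over day 4 it was 1 after scaling, 5 in the first set, 0 in the second and 0 to 3 without single arrays, against 2. For day 21 over day 4 it was 1 after scaling, 5 in the first set, 0 in the second and 2 to 3 without single arrays, against 3. In the second set each of days 4, 15 and 21 has 1 array, assumed to vary like day 8. The cause of these shifts was not tested.

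Apart from turning the deposited sign itself, signs of the 7 genes turned only in differences that were not called. For day 21 over day 15, Spink1 gave -0.14 after quantile normalization, -0.33 after scaling and -0.0195 in the first set, Cyp26a1 -0.0473 in the first set, St3gal6 0.12 in the second set, and Vldlr -0.0563 after scaling, -0.0964 with array weights and -0.0417 in the first set. For day 15 over day 4, Sox17 gave -0.0041 in the second set and Cyp26a1 0.18 with array weights and 0.47 in the first set. For day 21 over day 4, Cyp26a1 gave -0.32 after quantile normalization, -0.14 after scaling and -0.40 in the second set. At day 4 Sox17 gave -0.0417 in the first set and Tinagl1 0.12 in the second. Without single arrays, ranges crossing 0 were -0.0417 to 0.0927 (Sox17) and -0.19 to 0.13 (Tinagl1) at day 4. For day 21 over day 15 they were -0.052 to 0.129 (Spink1), -0.42 to 0.16 (St3gal6) and -0.291 to 0.315 (Vldlr). For Cyp26a1 they were -0.39 to 0.24 for day 15 over day 4 and -0.103 to 0.535 for day 21 over day 4. With the deposited sign turned, the median of the 7 genes at day 21 is -0.95 in place of 0.95.

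Deviations of arrays with the same replicate number correlated by -0.14 to 0.38, so the numbers were not taken as pairs; with the replicate block 3 of 7 genes were called at day 15, where Sox17 was lost (limma adjusted p = 0.0546), and 5 at day 21. Over all features the calls ranged from 1 to 999 at day 8 (244 as reported), 115 to 3251 at day 15 (1129) and 226 to 2622 at day 21 (1999). The count of primitive and parietal endoderm genes called higher at day 8 was 17 with array weights, and 0 in a fit of day 8 alone and in the first set. For visceral endoderm it was 12 with array weights, 10 in the second set, and 0 in a fit of day 8 alone and in the first set. In the second set alone, primitive and parietal endoderm had 1 called higher at day 15 and 2 at day 21, and visceral endoderm 6 and 5. For definitive and anterior endoderm the count over all alternatives ran from 0 to 4 at day 8, 0 to 4 at day 15 and 1 to 5 at day 21. Counts of lists other than these 3 were not refitted.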
